A study of Homo sapiens with 6 samples.

Results

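SW780 is a human bladder cancer cell line whose labels give it an FGFR3-BAIBP2L1 fusion. The comparison is between SW780 cells kept for 2 days in 25 nM quisinostat and SW780 cells kept as long in the solvent DMSO, and these are 2 of the 6 RNA-seq libraries of the series. The other 4 libraries come from RT4 cells at 50 nM and RT112 cells at 10 nM, each with its own DMSO control, and both of those lines are labelled with an FGFR3-TACC3 fusion. All cells grew in medium with 10% heat-inactivated serum. One label of the SW780 quisinostat library names the line SW781, while its title and column name give SW780, and it was taken as SW780. There was 1 library for each line and treatment, so a difference within SW780 cells has no replicate check and no p-value, and it compares these libraries.

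The values are FPKM, sequenced fragments divided by transcript length and by library depth. A locus is a stretch of transcripts that the authors' assembly put under one identifier. The description covers 8234 of 10066 loci, those with a mean of at least 2 FPKM over the 2 SW780 libraries, of which 7429 carry exactly 1 gene name. The locus just inside this limit was MVD, with a mean of 2.0004 FPKM, and the one just outside was RIPK3, with a mean of 1.9996 FPKM. Ratios are the log2 of (FPKM with quisinostat + 1) over (FPKM in DMSO + 1), which understates the change of low genes. Below, a locus is called higher or lower where this ratio reached 1 or -1, which is 2-fold on that scale. A fold against a library listed at 0 is not given, since a gene that cells in general use, the peroxisomal import receptor PEX5, was also listed at 0 in the DMSO library.

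Quisinostat is an inhibitor of histone deacetylases, the enzymes that take acetyl groups off histone tails and many other proteins. Acetylated histones loosen chromatin, and cells given such inhibitors raise some genes and lower others over hours to days. Bladder cancers with FGFR3 changes are often of the luminal papillary kind, which keep programmes of the normal urothelium such as uroplakins and simple keratins. Signals from FGFR3 and from the ERBB receptors meet on the RAS and MAPK cascade, whose output can be read from feedback genes such as the DUSP phosphatases and the Sprouty proteins.

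The markers of the labelled cell type were present in both SW780 libraries. Of 15 urothelial luminal markers, 13 reached 1 FPKM in each library, and their summed level was 1636 FPKM in DMSO and 901 FPKM with quisinostat. All 4 general epithelial markers reached 1 FPKM, with sums of 181 and 211 FPKM. None of the 5 leukocyte or 4 endothelial markers was among the gene names of the table. Of 6 fibroblast markers, COL1A2, DCN and PDGFRB were not among the names, and the other 3 summed to 10.97 and 15.99 FPKM. The number of reads behind the values is unknown. The median over all loci was 6.93 FPKM in the DMSO library and 7.39 FPKM in the quisinostat library, 288 and 268 loci were listed at 0, and the summed FPKM differed by a factor of 0.976.

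More loci were higher than lower after quisinostat. In the SW780 comparison 567 loci were higher (6.89% of those described) and 296 were lower (3.59%), while 6023 (73.1%) stayed within 1.5-fold. The counts given below for gene lists are to be read beside these shares of 6.89% and 3.59%. The median ratio of all loci was 0.04, and 90% of them, between the 5th and the 95th percentile, lay between -0.87 and 1.19. The loci that were higher started low, with a median of 2.23 FPKM in DMSO against 9.36 FPKM for all loci, and 131 of them were under 1 FPKM in DMSO. Each locus under 1 FPKM in DMSO could reach the mean of 2 FPKM only through the quisinostat library, so these 131 had to be higher and their number is no finding, and the same holds for 36 lower loci under 1 FPKM with quisinostat. A locus between 1 and 2 FPKM in DMSO could pass only with a larger value in the quisinostat library. Such loci tilt the list counts below toward higher. Those that were lower had a median of 9.74 FPKM in DMSO and of 2.86 FPKM with quisinostat. Among the 824 loci of at least 50 FPKM in DMSO the balance was the other way, with 14 higher and 39 lower. These loci were selected on the DMSO value, against which the ratio is taken, so the subset is tilted toward lower by construction. Over the same loci, 995 were higher (12.1%) and 756 lower (9.18%) in RT4 cells, and 532 were higher (6.46%) and 114 lower (1.38%) in RT112 cells. In a bulk library, fewer cells that express a gene and less RNA per cell cannot be told apart.

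**Figure D1:**
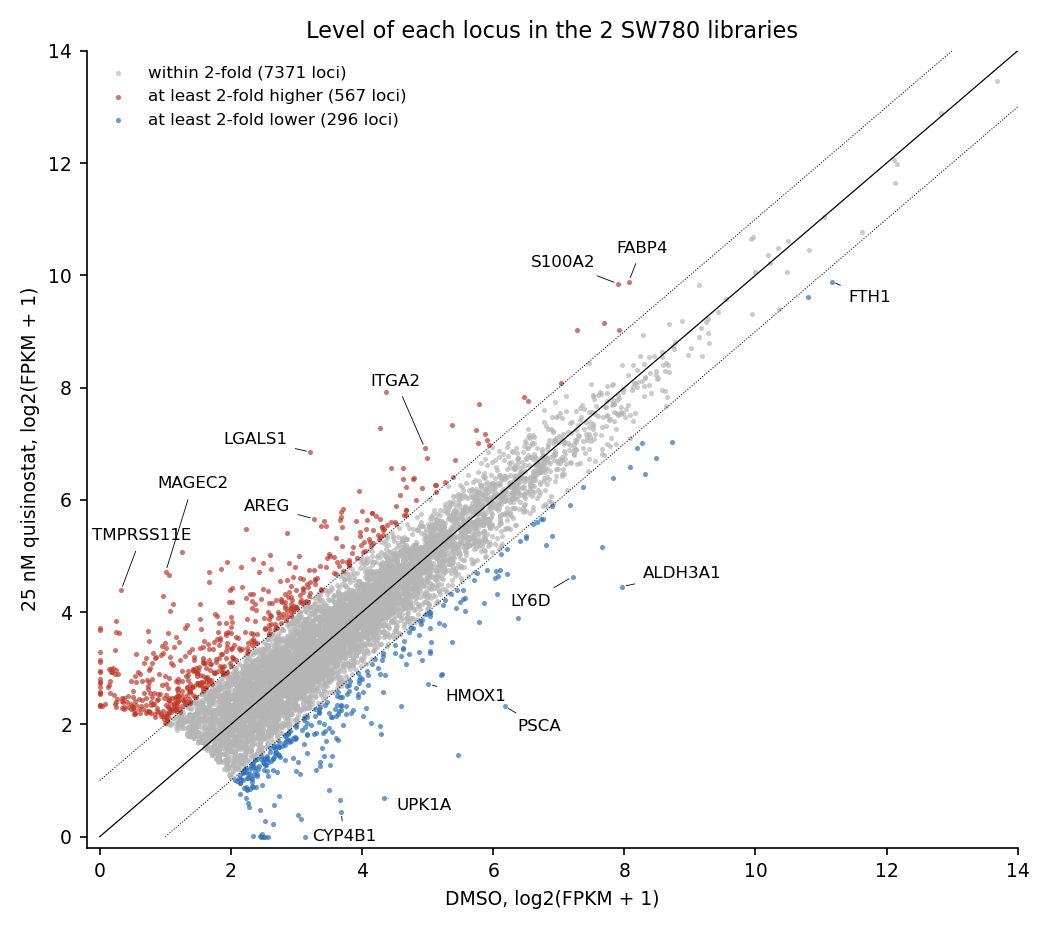
Level of each of the 8234 loci in the DMSO library (x axis) and the 25 nM quisinostat library (y axis) of SW780 cells, both as log2(FPKM + 1). The solid line marks equal levels and the dotted lines a ratio of 2-fold, with 567 loci above and 296 below the dotted lines, and points on an axis line are loci listed at 0 in 1 library.

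Base composition differed between the directions. The transcripts of the loci that were lower had a median GC content of 56.0%, against 47.2% for those that were higher and 47.6% for all loci with a value. In the fifth of loci richest in GC, 115 were lower and 68 higher, and in the fifth poorest in GC, 24 were lower and 96 higher. With a smooth curve of ratio on GC content subtracted, 472 loci were higher and 229 lower among 7316 with a GC value. Of the genes given below, FGFR3, ERRFI1, NRG1, CCNG2, HSPB1, SREBF1 and ISG15 were no longer past 2-fold with this correction, which was chosen after seeing the data.

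The genes of the ERBB pathway were among the groups that stood highest. ERBB receptors such as EGFR are receptor tyrosine kinases of epithelial cells, and amphiregulin, epiregulin, HB-EGF, TGF-alpha and the neuregulins are their ligands. Of 9 measured loci of this list, 7 were higher and 0 lower, with a median ratio of 1.16 beside 0.04 for all loci. The amphiregulin gene AREG was at 8.67 FPKM in DMSO and 49.5 FPKM with quisinostat, a ratio of 2.39. The epiregulin gene EREG was at 4.38 and 25.4 FPKM, a ratio of 2.29. HBEGF stood at 2.51 and 12.9 FPKM. All of these ligands were several times as abundant in the treated library, and TGFA (5.43 and 17.7 FPKM) and NRG1 (1.97 and 5.28 FPKM) were higher as well. NRG1, under 2 FPKM in DMSO, could pass the limit on level only with a larger value in the quisinostat library. NRG4, which did not pass that limit, was at 2.39 FPKM in DMSO and 1.34 FPKM with quisinostat. Among the receptors, EGFR itself was at 20.8 FPKM in DMSO and 47.8 FPKM with quisinostat, a ratio of 1.16. ERBB2 stayed within 2-fold, at 15.8 and 10.5 FPKM. ERBB3 shares its locus with PA2G4, whose joint level was 53.7 and 39.4 FPKM. ERRFI1, an inhibitor that binds EGFR and dampens it, was also higher, at 15.2 and 32.6 FPKM. These are RNA levels of single libraries. Using antibodies to the ERBB receptors, the study reported EGFR expression as unaffected by quisinostat. It reported ErbB2, ErbB3 and ErbB4 as downregulated in SW780 cells. In RT4 cells 2 of the 9 loci were higher and 1 lower, and in RT112 cells 0 were higher and 1 lower, with medians of 0.34 and 0.13.

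The promoters of the ligand genes that were highest are shown because these genes differed in the same direction in SW780 cells. The windows run from 250 bases before to 50 bases after the annotated start, from RefSeq on GRCh38.p14, 5′ to 3′ on the strand of the gene. Capitals mark matches, on either strand, to any of 7 short motifs, and shares are of the 5948 single-name loci whose promoter was matched. The TATA box was searched as TATAAA and found in 5.43% of them. The CCAAT motif was found in 38.1%, and the GC box, spelled GGGCGG, in 72.2%. The spelling TTTGAA, known from promoters of cell cycle genes, was in 9.85%. A cyclic AMP response element spelled TGACGTCA was in 3.65%, and the AP-1 site TGANTCA in 4.34%. The last motif was TCACNCCAC, found in 1.03%.
AREG, chr4:74444886-74445185, plus strand: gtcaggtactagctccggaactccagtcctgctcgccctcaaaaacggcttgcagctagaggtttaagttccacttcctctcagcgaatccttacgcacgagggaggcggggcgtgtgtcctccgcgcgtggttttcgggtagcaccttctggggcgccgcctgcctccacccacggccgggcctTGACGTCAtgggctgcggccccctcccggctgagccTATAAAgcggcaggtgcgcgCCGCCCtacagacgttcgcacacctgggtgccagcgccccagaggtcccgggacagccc
EREG, chr4:74364895-74365194, plus strand: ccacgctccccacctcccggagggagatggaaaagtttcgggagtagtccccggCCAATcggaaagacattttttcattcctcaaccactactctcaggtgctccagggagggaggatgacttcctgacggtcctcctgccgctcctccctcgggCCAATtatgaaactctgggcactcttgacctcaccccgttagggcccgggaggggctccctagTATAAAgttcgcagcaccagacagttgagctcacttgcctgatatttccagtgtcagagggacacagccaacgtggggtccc
HBEGF, chr5:140346554-140346853, minus strand: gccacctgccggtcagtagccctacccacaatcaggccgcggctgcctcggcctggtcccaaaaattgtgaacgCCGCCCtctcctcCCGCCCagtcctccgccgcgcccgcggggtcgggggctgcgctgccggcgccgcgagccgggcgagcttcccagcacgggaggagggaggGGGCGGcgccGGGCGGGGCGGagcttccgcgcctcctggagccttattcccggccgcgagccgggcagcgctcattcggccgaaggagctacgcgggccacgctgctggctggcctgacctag

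AREG and EREG lie close together on chromosome 4, and both windows hold a TATA box. AREG also holds the cyclic AMP response element, which is a palindrome, and 1 GC box. EREG holds 2 CCAAT motifs, and HBEGF holds 5 GC boxes, some of them overlapping, and no TATA box of this spelling. Such a match is a description of the letters, not of binding. Only 384 of 503 single-name loci that were higher and 195 of 259 that were lower had a promoter in the reference table, so a comparison of motif shares between those sets is void.

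Some feedback genes of the MAPK cascade were higher too. Of 17 measured loci in the list of FGF receptors and MAPK feedback genes, 5 were higher and 0 lower, with a median of 0.51. EGR1, an immediate early transcription factor, was at 0.218 FPKM in DMSO and 6.47 FPKM with quisinostat. It could thus pass the limit on level only through the quisinostat library. DUSP6, the phosphatase that takes phosphate off ERK, was at 5.699 and 22.4 FPKM, a ratio of 1.80. ETV5, an ETS factor downstream of FGF signals, was at 4.14 and 13.4 FPKM. These genes, with IER3 (6.53 and 21.1 FPKM) and the AP-1 subunit FOSL1 (8.705 and 21.7 FPKM), were all more abundant in the treated library. The Sprouty and Spred genes stayed under 2-fold, as for SPRY2 (1.59 and 2.66 FPKM) and SPRED1 (1.56 and 3.53 FPKM). In RT112 cells the ratio of DUSP6 was -1.20, and in RT4 cells it was -0.60.

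FGFR3, the receptor gene that the label's fusion names, was low in RNA. It was at 2.49 FPKM in DMSO and 0.621 FPKM with quisinostat in SW780 cells, a ratio of -1.11, and its mean was under the limit of 2 FPKM. The study's own RT-qPCR, which had replicates, went the other way. With primers for the N-terminal part, it reported FGFR3 mRNA as not lowered in the lines and as raised in SW780 cells. On western blots it reported FGFR3 protein as lowered by quisinostat, in SW780 cells too. The FPKM of a locus does not separate the fusion transcript from the normal one. BAIAP2L1, the gene the label's partner name resembles, shares a locus with RPS3AP26, and this locus was at 11.1 and 11.4 FPKM. HDGF, a heparin-binding growth factor that the study followed, encoded at chr1:156742107-156766925, was at 173 FPKM in DMSO and 90.1 FPKM with quisinostat, a ratio of -0.93, just short of 2-fold. The study reported HDGF as lowered by quisinostat in replicated RT-qPCR and on western blots. The drug's own targets differed little in RNA. HDAC1 was at 79.2 and 82.2 FPKM, HDAC2 at 9.51 and 10.9 FPKM, and HDAC3 at 53.98 and 48.3 FPKM. Of the 4 measured histone deacetylase loci and the 19 of their corepressor complexes, 0 were past 2-fold in either direction.

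Transcription factors of the AP-1 and KLF families, which act early in responses to growth factors and stress, had a median of 1.26. Of 12 measured loci 7 were higher and 1 lower. JUN was at 4.01 FPKM in DMSO and 17.3 FPKM with quisinostat. KLF4, a factor of epithelial differentiation, was at 1.77 and 7.03 FPKM, and KLF10 at 7.94 and 21.5 FPKM. Several of these genes were low in DMSO. KLF4, ATF3, KLF7 and KLF13 were under 2 FPKM there and could pass the limit on level only with a larger value in the quisinostat library. With a mean of at least 5 FPKM required, 6 loci remained and their median was 0.47. FOSL2 was lower, at 23.2 and 8.28 FPKM, while FOSL1 was higher, so members of the same family differed in direction.

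**Figure D2:**
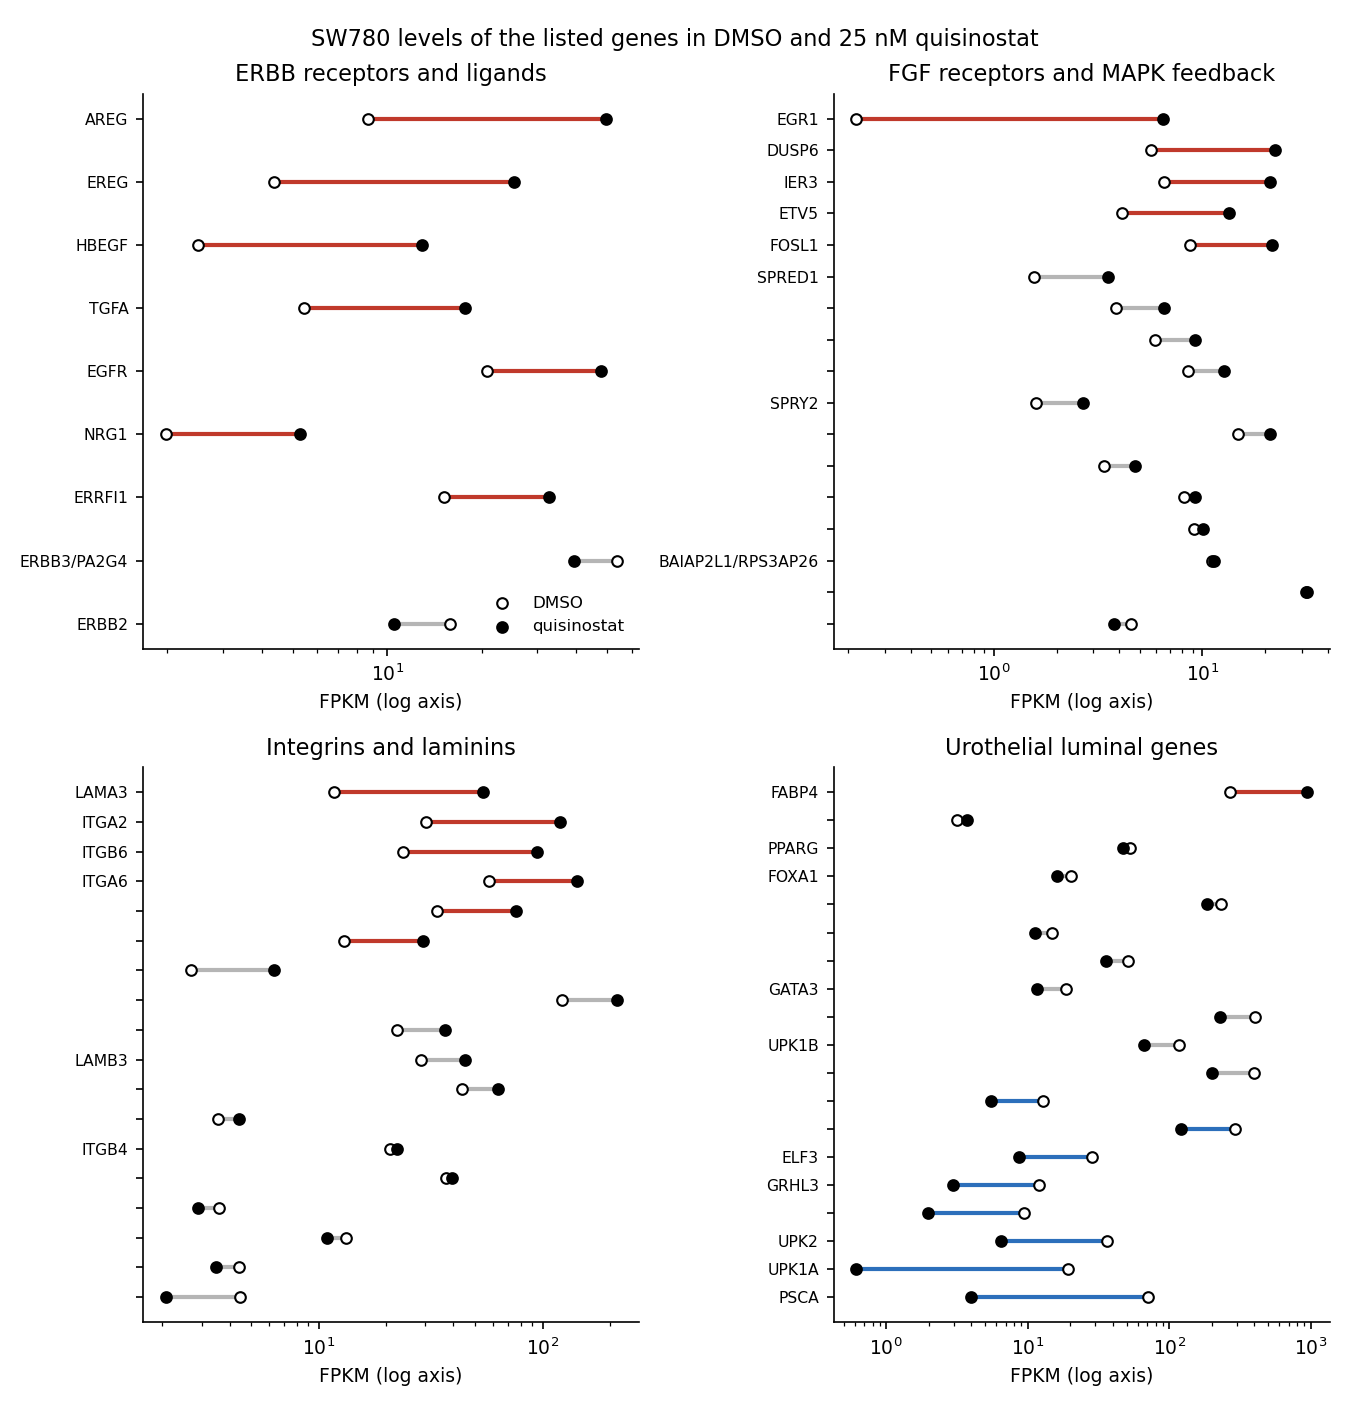
FPKM (log axis) in DMSO (open circles) and 25 nM quisinostat (filled circles) for loci of 4 gene lists in SW780 cells, with red lines for loci at least 2-fold higher, blue for lower and grey for the rest. Genes given in the text carry their names. Of the loci drawn, 7 of 9, 5 of 17 and 6 of 18 carry red lines in the first 3 panels, and 8 of 19 carry blue lines among the urothelial luminal genes.

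Several genes of cell attachment were higher. Laminins are sheet-forming proteins of the basement membrane and integrins are the receptors that hold cells to them. Of 19 measured loci 7 were higher and 0 lower, with a median of 0.68. LAMA3, a laminin alpha chain, was at 11.7 FPKM in DMSO and 54.4 FPKM with quisinostat, a ratio of 2.12, while the beta chain LAMB3 was at 28.8 and 45.1 FPKM and stayed under 2-fold. The ratio was thus larger for the alpha chain than for the beta chain. ITGA2, a collagen receptor subunit, was at 30.1 and 120.2 FPKM. ITGB6, the beta chain of an integrin that binds latent TGF-beta, was at 23.8 and 94.3 FPKM, and ITGA6, which pairs with the beta 4 chain in hemidesmosomes, was at 57.8 and 143 FPKM. ITGB4 itself stayed near its level, at 20.9 and 22.3 FPKM. LAMA3 had ratios of 2.29 in RT4 cells and 1.62 in RT112 cells.

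Some of the largest differences were in genes of the cell surface, the cytoskeleton and the surrounding matrix. LGALS1, the galectin-1 gene at chr22:37675608-37679806 on GRCh38, was at 8.28 FPKM in DMSO and 114 FPKM with quisinostat, a ratio of 3.64, and its ratios were 5.43 in RT4 and 3.70 in RT112 cells. AKAP12, a scaffold for protein kinase A, was at 1.39 and 32.4 FPKM, and TMPRSS11E, a serine protease of epithelia, at 0.252 and 19.99 FPKM, the highest ratio of any single-name locus above 0 in both libraries. Moesin, the MSN gene, links actin to the membrane and was at 2.17 and 25.4 FPKM. Tropomyosin 1, TPM1, was at 9.42 and 45.5 FPKM. Of 30 measured actin and tubulin loci 4 were higher and 0 lower, and the abundant ACTB was at 469 and 578 FPKM. Among 8 measured mesenchymal loci 4 were higher and 0 lower, with a median of 0.97, and 2 had ratios under 0, the lowest -0.69. Those that were higher were N-cadherin (CDH2, 1.02 and 5.58 FPKM), SNAI2 (10.01 and 30.3 FPKM), MMP2 (11.99 and 35.3 FPKM) and fibronectin (FN1, 18.7 and 45.0 FPKM). CDH2, so low in DMSO, could pass the limit on level only with a larger value in the quisinostat library. E-cadherin, CDH1, was not lower, at 58.01 and 72.2 FPKM. Of 26 epithelial junction loci 2 were higher (7.69%, near the 6.89% of all loci) and 0 lower.

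Many luminal urothelial genes were lower. Uroplakins form the plaques of the bladder's surface cells, and of 19 measured loci of the luminal list 8 were lower and 1 higher, with a median of -0.82. PSCA, a surface antigen of urothelium and prostate, was at 71.3 FPKM in DMSO and 3.999 FPKM with quisinostat, a ratio of -3.85. UPK1A was at 19.2 and 0.613 FPKM, and UPK2 at 36.2 and 6.44 FPKM. These 3 genes were a small part of their DMSO level in the treated library, while UPK1B stayed within 2-fold, at 117 and 65.9 FPKM. Of the transcription factors, GRHL3 (12.03 and 2.96 FPKM) and ELF3 (28.3 and 8.74 FPKM) were lower. GATA3 was at 18.5 and 11.6 FPKM, PPARG at 52.8 and 46.9 FPKM, and FOXA1 at 20.1 and 16.1 FPKM, so the leading luminal factors differed by less than 2-fold. The exception upwards was FABP4, a fatty acid carrier and known PPARG target, at 267 FPKM in DMSO and 944 FPKM with quisinostat. The list's median was -1.12 in RT4 cells and 0.43 in RT112 cells, and UPK1A had ratios of -3.55 and 1.60 there.

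The promoter of UPK1A is shown as that of the uroplakin gene with the largest difference, with the same window and motifs in capitals. It holds 1 match, a TATA box spelling far from the start, and only 4 CpG pairs in 300 bases.
UPK1A, chr19:35666267-35666566, plus strand: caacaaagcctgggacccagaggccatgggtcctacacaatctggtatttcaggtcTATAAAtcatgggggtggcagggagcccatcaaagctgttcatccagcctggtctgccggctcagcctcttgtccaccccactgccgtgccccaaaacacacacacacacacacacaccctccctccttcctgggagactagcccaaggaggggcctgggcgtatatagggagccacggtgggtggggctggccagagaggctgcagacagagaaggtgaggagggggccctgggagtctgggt

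Basal and squamous genes stood on both sides. Of 9 measured loci 5 were higher and 2 lower, with a median of 1.05. The 5 include a locus at 0.201 FPKM in DMSO, which could pass the limit on level only through the quisinostat library. The summed level of all 13 loci of the list in the table was 477 FPKM in DMSO and 574 FPKM with quisinostat. The 6 loci of basal marker genes in the table, which do not include KRT13, summed to 179 and 405 FPKM. TP63, the master factor of basal epithelium, was at 19.7 FPKM in DMSO and 45.96 FPKM with quisinostat. CD44, a hyaluronan receptor, was at 26.6 and 82.6 FPKM, and keratin 17 (KRT17) at 130.2 and 271 FPKM. S100A2, a calcium-binding protein of basal cells encoded at chr1:153561108-153567890, was at 238 FPKM in DMSO and 921 FPKM with quisinostat, the largest gain in FPKM of any single-name locus. It is counted with the S100 genes and not in this list. LY6D, a gene of stratified epithelium also outside the list, was lower and is given below. Against these, KRT13, a keratin of stratified epithelium, was at 200.5 and 34.9 FPKM, and the cornified envelope gene SPRR3 at 4.68 and 1.26 FPKM. The basal keratins KRT5 and KRT6A share 1 locus, which was under 1 FPKM in both libraries.

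Antioxidant genes were level or lower in SW780 cells. NRF2, encoded by NFE2L2, switches on genes for glutathione synthesis, quinone reduction, iron storage and NADPH supply. Of 36 measured loci of this list 13 were lower and 0 higher, with a median of -0.50. The 13 include KEAP1, the inhibitor of NRF2 rather than one of those genes, at 8.72 FPKM in DMSO and 3.44 FPKM with quisinostat. ALDH3A1, an aldehyde dehydrogenase gene at chr17:19737984-19748943, was at 249 FPKM in DMSO and 20.9 FPKM with quisinostat, a ratio of -3.51. HMOX1, which breaks down heme, was at 31.2 and 5.57 FPKM. AKR1C3, an aldo-keto reductase, was at 424 and 130.4 FPKM. Its relatives AKR1C1 and AKR1C2 were lower as well, although reads of such close copies may be split between them. The ferritin chains had the largest differences in FPKM of any nuclear single-name locus: FTH1 was at 2292 and 947 FPKM and FTL at 1774 and 782 FPKM. NQO1, a quinone reductase, was at 306 and 128 FPKM, GCLC, which makes the first step of glutathione synthesis, at 28.3 and 10.98 FPKM, and the pentose phosphate enzyme PGD at 270.0 and 95.3 FPKM.

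Other members of that list were level. TXNRD1, thioredoxin reductase, was at 59.1 and 67.5 FPKM, and the cystine carrier SLC7A11 was at 16.7 and 23.8 FPKM, so not every gene of the programme was lower. NFE2L2 itself was at 56.1 and 35.2 FPKM. In RT4 cells, 16 of the same 36 loci were higher and 2 lower (median 0.69), and in RT112 cells 0 were higher and 1 lower (median -0.13). HMOX1 was at 38.95 FPKM in DMSO and 84.02 FPKM with quisinostat in RT4 cells and at 2.27 and 3.45 FPKM in RT112 cells. FTH1 was at 1354 and 3957 FPKM in RT4 cells and at 676 and 391 FPKM in RT112 cells. For both genes the treated library was thus the higher one in RT4 cells and the lower one in SW780 cells.

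Most genes of DNA replication and mitosis had ratios a little under 0. Of 45 replication loci 5 were lower and 0 higher, with a median of -0.56, and of 53 mitosis loci 6 were lower and 0 higher, with a median of -0.60. LIG1, the DNA ligase of replication, was at 13.2 FPKM in DMSO and 3.597 FPKM with quisinostat, and MCM5, a part of the replicative helicase, at 12.6 and 4.85 FPKM. PCNA, the sliding clamp, was at 205 and 110.1 FPKM. The kinesin KIF20A was at 46.4 and 18.02 FPKM, and TOP2A was at 119 and 59.7 FPKM, just short of 2-fold. MKI67, which marks cycling cells, was at 42.7 and 20.04 FPKM. Most members thus differed by less than 2-fold but in the same direction. Of 22 loci of G1 cyclins, kinases and inhibitors 0 were past 2-fold. CDKN1A, the p21 inhibitor that such drugs raise in many cells, was at 46.3 and 66.3 FPKM, and cyclin D1 (CCND1) at 56.9 and 33.3 FPKM. Of 26 p53 target loci 2 were higher (7.69%, near the 6.89% of all loci) and 0 lower. The 2 were GADD45A (6.07 and 15.9 FPKM) and CCNG2 (2.28 and 5.597 FPKM). Of 13 loci of the BCL2 family 1 was lower (7.69%, beside 3.59% of all loci), BCL2L12 (4.698 and 1.47 FPKM).

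**Figure D3:**
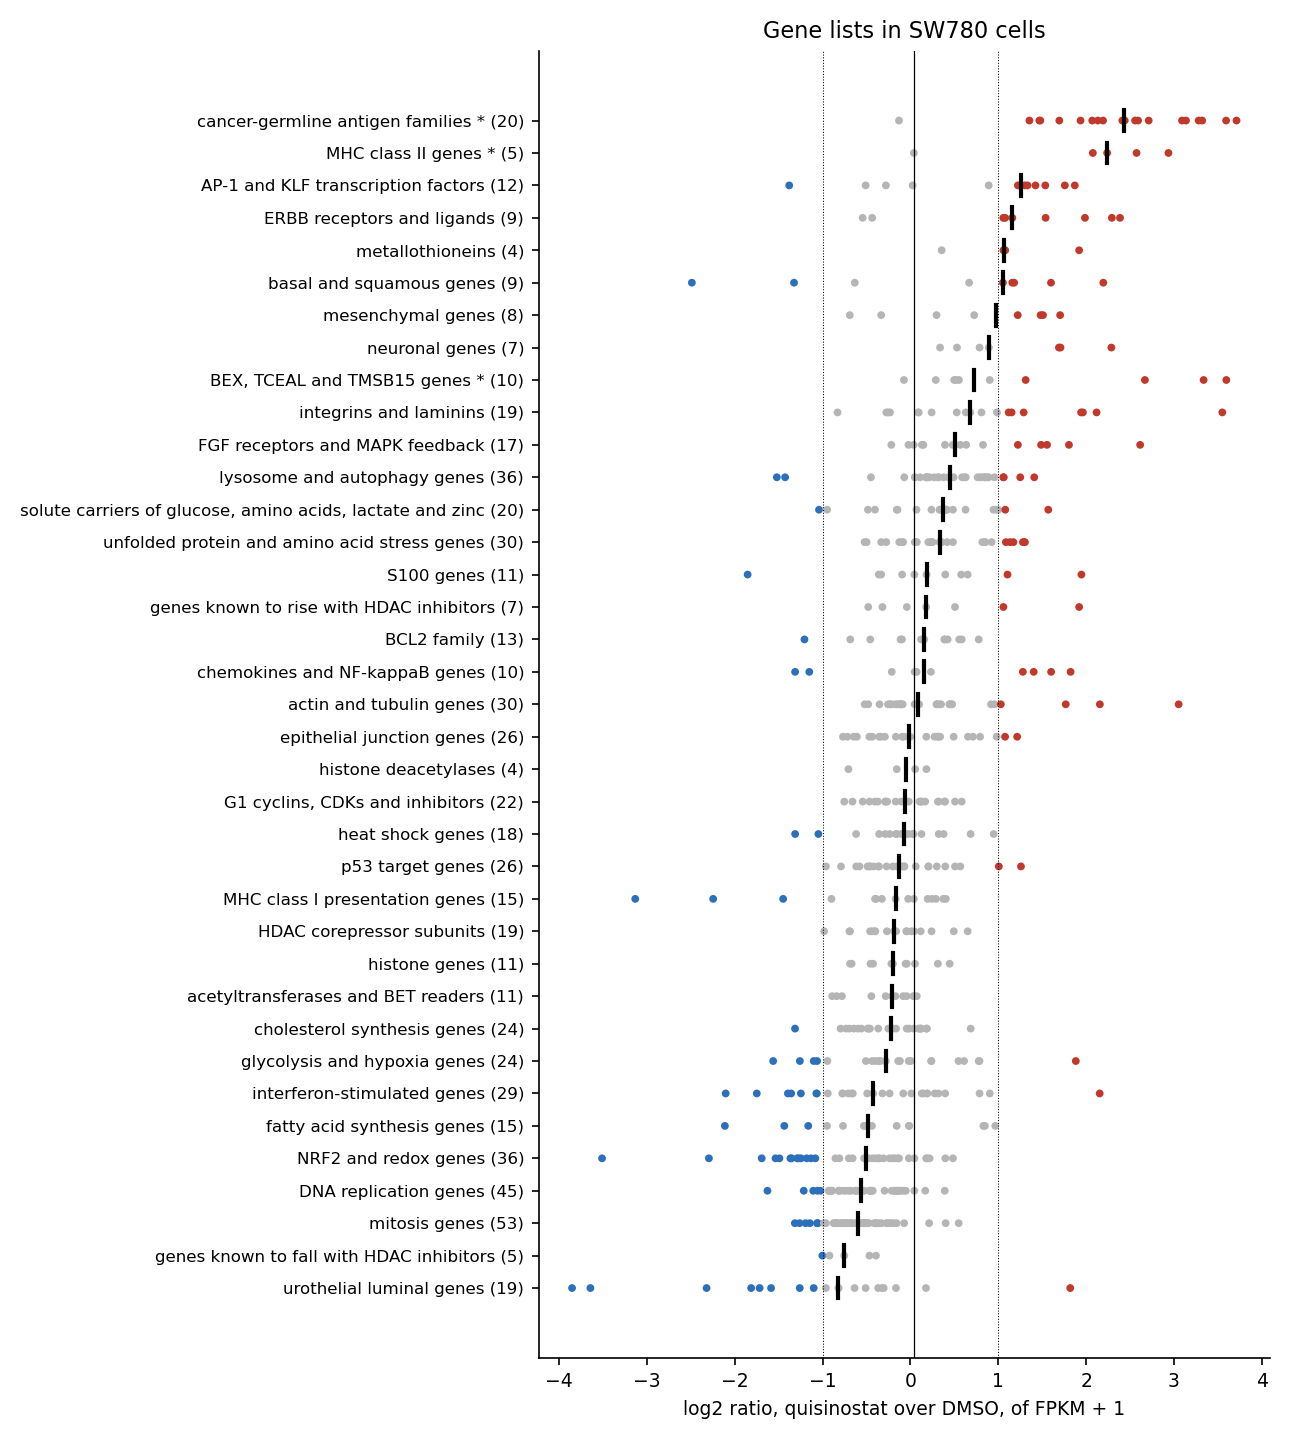
Log2 ratio of FPKM + 1, quisinostat over DMSO, of every measured locus (points) in each gene list in SW780 cells, with the number of loci in brackets, the list median as a black bar, the median of all loci as a solid line and 2-fold as dotted lines. The medians run from -0.82 for urothelial luminal genes to 2.43 for the cancer-germline antigen families, an asterisk marks lists chosen after the values were seen, and loci listed at 0 in 1 library are placed by the added 1.

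Beside 3.59% of all loci, 20.0% of fatty acid synthesis and 16.7% of glycolysis and hypoxia loci were lower. Of 15 fatty acid synthesis loci 3 were lower and 0 higher (median -0.49), and these were FASN (16.6 and 3.07 FPKM), which makes palmitate, the desaturase gene SCD (227 and 83.02 FPKM) and their regulator SREBF1 (6.405 and 2.303 FPKM). Of 24 cholesterol synthesis loci 1 was lower (4.17%, median -0.23), ACAT2 (44.2 and 17.2 FPKM). Of 24 glycolysis and hypoxia loci 4 were lower and 1 higher (median -0.28). ALDOA, the glycolytic aldolase, was at 143 and 59.03 FPKM, and GAPDH stood at 1306 and 677 FPKM, just short of 2-fold. The one that was higher, NDRG1, is a stress and hypoxia gene and was at 2.78 and 12.9 FPKM.

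Interferon-stimulated genes were mostly level or lower. Of 29 measured loci 7 were lower and 1 higher, with a median of -0.42. TRIM22 was at 10.7 FPKM in DMSO and 1.72 FPKM with quisinostat, MX1 at 3.85 and 0.441 FPKM, and ISG15 at 6.98 and 2.36 FPKM. IFI6 was higher, at 5.08 and 26.1 FPKM, and it was higher in RT4 and RT112 cells as well, with ratios of 4.64 and 3.25. In RT4 cells 11 of the 29 were higher and 1 lower, and in RT112 cells 7 were higher and 1 lower.

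Most class I antigen presentation genes were within 2-fold. Of 15 class I loci 3 were lower, PSMB10 among them, and 0 higher (median -0.17, or -0.10 without PSMB10). Another was ERAP2, a peptide trimming enzyme, at 25.2 and 8.58 FPKM. PSMB10, an immunoproteasome subunit, was at 7.78 FPKM in DMSO and listed at 0 with quisinostat. Whether this listed 0 is a failed estimate was not tested. B2M, the light chain, was level, at 186 and 183 FPKM. Class II genes, a group chosen after its values were seen, were mostly under 2 FPKM in DMSO, so most could pass the limit on level only with a larger value in the quisinostat library, and 4 of the 5 that passed were higher (median 2.24, or 2.08 without the 2 loci listed at 0). Over all 8 loci, with no limit on level, the median was 1.70. HLA-DQB1 was at 1.19 and 9.34 FPKM and HLA-DRB1 at 0.259 and 4.31 FPKM. HLA-DRA and HLA-DPB1 were listed at 0 in DMSO and were at 6.66 and 4.96 FPKM with quisinostat. The class II chain CD74 stayed low, at 1.02 and 1.299 FPKM. The ratios of HLA-DRB1 were 3.45 in RT4 and 0.67 in RT112 cells.

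Genes of unfolded protein and amino acid stress were level or higher. Of 30 loci for unfolded protein and amino acid stress 6 were higher (20.0%, beside 6.89% of all loci) and 0 lower, with a median of 0.34. ASNS, asparagine synthetase, was at 29.1 FPKM in DMSO and 72.8 FPKM with quisinostat, and the chaperone HSPA5, under 2-fold, at 109 and 192 FPKM. ATF4, the factor upstream of many of them, was at 135 and 111 FPKM. Of 4 loci in the metallothionein list, which also holds a zinc exporter and the metal-sensing factor, 3 were higher. MT1X was at 4.61 and 20.2 FPKM and MT2A at 7.73 and 17.2 FPKM, with reads that near-identical copies may share. Of 36 lysosome and autophagy loci 4 were higher (11.1%) and 2 lower (5.56%), near the shares over all loci, with a median of 0.45. WIPI1, which acts in autophagosome formation, was at 6.94 and 20.1 FPKM, while the autophagy receptor SQSTM1 was at 64.2 and 23.2 FPKM. The list's medians were 1.06 in RT4 and 0.38 in RT112 cells. Of 11 S100 loci 2 were higher and 1 lower. Of 18 heat shock loci 2 were lower and 0 higher (median -0.08), with HSPB1 at 37.6 and 17.7 FPKM, and of 11 histone loci 0 were past 2-fold.

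Among inflammatory genes, 4 of 10 loci were higher and 2 lower. IL1A was at 6.91 and 27.01 FPKM, IL1B at 6.08 and 16.2 FPKM, IL18 at 10.95 and 30.6 FPKM, and CXCL8 at 1.07 and 5.27 FPKM, all cytokines or chemokines. CXCL8, so low in DMSO, could pass the limit on level only with a larger value in the quisinostat library. NFKBIA, which restrains NF-kappaB, was lower, at 23.9 and 10.2 FPKM, as was TNFAIP2 (65.1 and 25.6 FPKM). Of 7 neuronal loci 3 were higher and 0 lower, among them the microtubule protein MAP1B (0.0267 and 4.01 FPKM) and the neurofilament gene NEFL (1.71 and 7.85 FPKM). MAP1B, so low in DMSO, could pass the limit on level only through the quisinostat library, and NEFL only with a larger value there. Of 7 loci in the list of genes known to rise with such inhibitors 2 were higher, both of them metallothioneins, while the linker histone gene H1F0 was level, at 83.7 and 81.3 FPKM. Of 5 loci known to fall 1 was lower, ANP32B (118 and 58.5 FPKM), and MYC was at 20.9 and 14.8 FPKM. For the solute carriers 2 of 20 loci were higher (10%) and 1 lower (5%), near the shares over all loci. For acetyltransferases and BET readers 0 of 11 were past 2-fold.

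Many cancer-germline antigen genes were near 0 in DMSO and present with quisinostat. These genes are silent in most adult tissues other than the testis, and many of them lie on the X chromosome in clusters of close copies. The families (MAGEA, MAGEB, MAGEC, GAGE, PAGE, XAGE, SPANX, SSX, VCX, CTAG and CSAG) were chosen after the values were seen, so their count is a description. Over all 26 loci the median level was 0.411 FPKM in DMSO and 7.14 FPKM with quisinostat. Of the 20 that passed the limit on level 19 were higher and 0 lower (median 2.43, 2.19 without the 3 listed at 0 and 2.16 over all 26 with no limit), but most of them were so low in DMSO that they could pass only with a larger value in the quisinostat library. MAGEC2 was at 1.01 FPKM in DMSO and 25.3 FPKM with quisinostat, and MAGEC1 at 0.189 and 6.79 FPKM. MAGEA1 was at 0.594 and 7.48 FPKM, and SPANXB1, the most abundant, at 87.9 and 226 FPKM. PAGE4, PAGE2 and VCX were listed at 0 in DMSO and were at 8.73, 4.89 and 7.802 FPKM with quisinostat. CTAG2 was the exception among those that passed, at 9.44 and 8.53 FPKM. Values of single SPANX, GAGE and XAGE genes are uncertain, since reads of their near-identical copies may be divided between them.

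In DMSO, 18 of the 26 loci of these families were under 1 FPKM in SW780 cells, and with quisinostat 3 were. In RT4 cells 24 of 26 were under 1 FPKM in either library, with MAGEA9B the highest at 20.4 FPKM in DMSO and 23.5 FPKM with quisinostat. In RT112 cells 25 were under 1 FPKM in DMSO and 22 with quisinostat, where the highest was CSAG1 at 3.098 FPKM. The promoters of MAGEC2 and PAGE4 are printed as those of a gene low in DMSO and a gene listed at 0 there, with the same window and motifs in capitals.
MAGEC2, chrX:142205241-142205540, minus strand: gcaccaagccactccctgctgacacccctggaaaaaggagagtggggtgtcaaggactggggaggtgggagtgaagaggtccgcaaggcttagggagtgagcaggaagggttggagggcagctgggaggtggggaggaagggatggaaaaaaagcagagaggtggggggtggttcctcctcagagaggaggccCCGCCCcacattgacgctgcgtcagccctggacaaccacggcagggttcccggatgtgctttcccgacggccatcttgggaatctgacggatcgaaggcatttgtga
PAGE4, chrX:49829010-49829309, plus strand: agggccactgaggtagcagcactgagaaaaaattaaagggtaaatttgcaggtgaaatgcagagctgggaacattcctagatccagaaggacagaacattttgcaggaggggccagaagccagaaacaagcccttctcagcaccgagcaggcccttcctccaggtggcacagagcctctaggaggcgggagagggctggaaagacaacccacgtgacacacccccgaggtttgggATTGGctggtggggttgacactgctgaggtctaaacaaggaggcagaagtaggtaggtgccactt

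The window of MAGEC2 holds 10 CpG pairs and 1 GC box, and that of PAGE4 holds 4 CpG pairs and 1 CCAAT motif, read on the other strand. Both genes lie on the X chromosome, where 42 of 265 loci with a position were higher (15.8%), beside 454 of 7052 (6.44%) on all other chromosomes. Over chromosomes 1 to 22 this share ran from 1.47% to 10.9%. Without the cancer-germline families, 23 of 245 X loci were higher (9.39%). In RT4 cells 47 of the 265 X loci were higher (17.7%) and in RT112 cells 17 (6.42%), so the share on the X was also above that line's other chromosomes in RT4 cells (12.3%) and not in RT112 cells (6.62%).

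**Figure D4:**
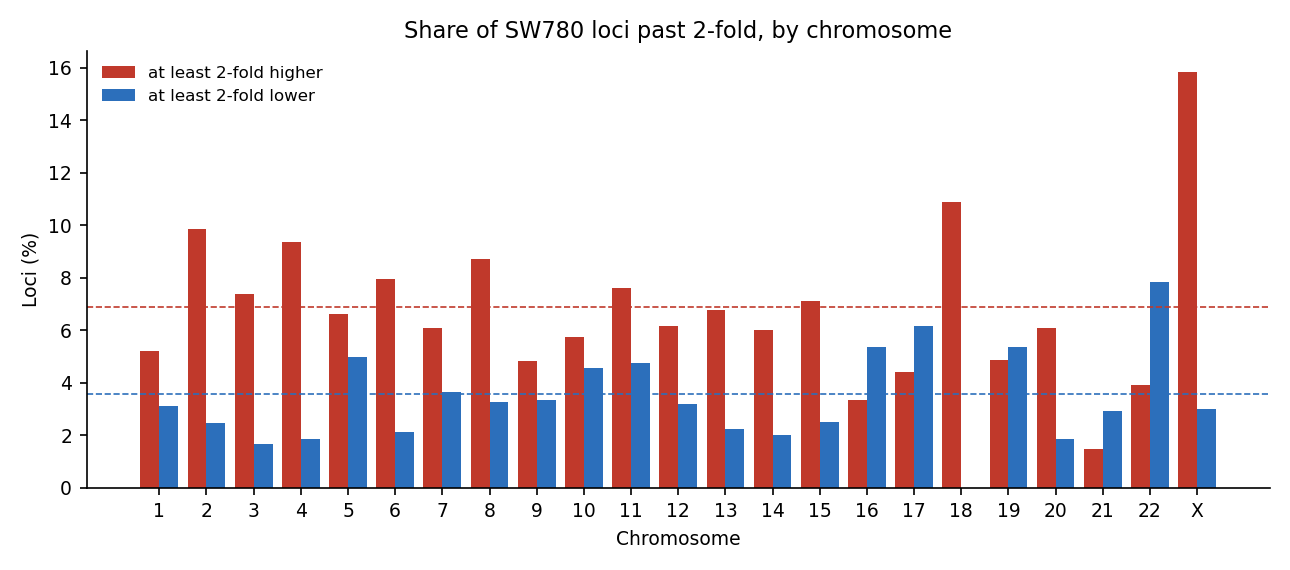
Percent of the described SW780 loci on each chromosome that were at least 2-fold higher (red) or lower (blue) with 25 nM quisinostat, with dashed lines at 6.89% and 3.59%, the shares over all loci. The X chromosome has the tallest red bar, 15.8%.

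Of 10 loci of the BEX, TCEAL and TMSB15 genes, small proteins encoded on the X chromosome and likewise chosen after their values were seen, 4 were higher and 0 lower (median 0.73, or 0.55 without TCEAL2, listed at 0 in DMSO). Of these 4, TMSB15A, BEX5 and TCEAL2 were under 1 FPKM in DMSO and so could pass the limit on level only through the quisinostat library. TMSB15A, a thymosin, was at 0.183 FPKM in DMSO and 13.3 FPKM with quisinostat, BEX5 at 0.223 and 11.4 FPKM, and BEX2 at 5.11 and 14.2 FPKM. BEX3, the most abundant, was level, at 111 and 105 FPKM. The ratios of TMSB15A were 3.57 in RT4 and 2.66 in RT112 cells, so it was higher in all 3 lines.

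Several genes were listed at 0, or close to it, in 1 of the libraries. DUXA, a homeobox gene of the early embryo, was listed at 0 in DMSO and was at 12.1 FPKM with quisinostat, and it was listed at 0 in all 4 RT4 and RT112 libraries. RFPL4A and the calcium-binding protein gene CALB2 were listed at 0 in DMSO and were at 7.64 and 6.74 FPKM with quisinostat. In the other direction, NOL3 and DNPH1 were at 4.71 and 4.63 FPKM in DMSO and listed at 0 with quisinostat. PHF11 was at 4.57 and 0.0276 FPKM. TCOF1, a ribosome biogenesis factor, was at 11.7 and 0.578 FPKM, and the deubiquitinase USP8 at 7.39 and 0.247 FPKM. Both were also near 0 in other libraries, untreated ones among them. TCOF1 was at 0.0718 FPKM in DMSO and 0.0183 FPKM with quisinostat in RT4 cells, and at 0.153 FPKM in RT112 DMSO. USP8 was at 0.255 FPKM in DMSO and 0.0943 FPKM with quisinostat in RT112 cells. Whether such values are failed estimates of a locus was not tested. Among all described loci 16 were listed at 0 in DMSO and 5 with quisinostat, and without them 551 loci were higher and 291 lower.

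Of the loci that were abundant in DMSO, some not yet given with values stood far from equal. ALDH1A3, a retinaldehyde dehydrogenase, was at 154 FPKM in DMSO and 523 FPKM with quisinostat. TMSB10, a thymosin that binds actin monomers, was at 205 and 567 FPKM, and IGFL1 at 52.4 and 150.2 FPKM. LY6D, a surface protein of stratified epithelium, was at 147 and 23.8 FPKM, RARRES3, a retinoid-induced gene, at 82.01 and 13.8 FPKM, and S100P at 317 and 86.8 FPKM. CYP4B1, a cytochrome P450 at a lower level, was at 11.8 and 0.353 FPKM.

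The SW780 response was set beside those of RT4 cells at 50 nM and RT112 cells at 10 nM, where dose and line cannot be told apart. Of the 567 loci higher in SW780 cells, 284 were also higher in RT4 cells, which is 50.1% of the SW780 loci and 28.5% of the RT4 loci, where 12.1% of all loci were higher in RT4 cells. With RT112 cells 136 were shared, 23.99% of the SW780 loci and 25.6% of the RT112 loci, beside 6.46% over all loci. Of the 296 lower loci, 127 were also lower in RT4 cells (42.9% of the SW780 and 16.8% of the RT4 loci, beside 9.18% over all loci). In RT112 cells 22 were also lower (7.43% and 19.3%, beside 1.38% over all loci). Higher in neither other line were 227 of the 567 loci (40.04%, beside 83.4% of all loci), and lower in neither were 150 of the 296 (50.7%, beside 89.5%). These include loci past 2-fold in the opposite direction: of the higher loci 2 were lower in RT4 and 9 in RT112 cells, and of the lower loci 18 were higher in RT4 and 35 in RT112 cells. The loci lower in SW780 cells had a median ratio of -0.83 in RT4 cells and 0.00 in RT112 cells.

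**Figure D5:**
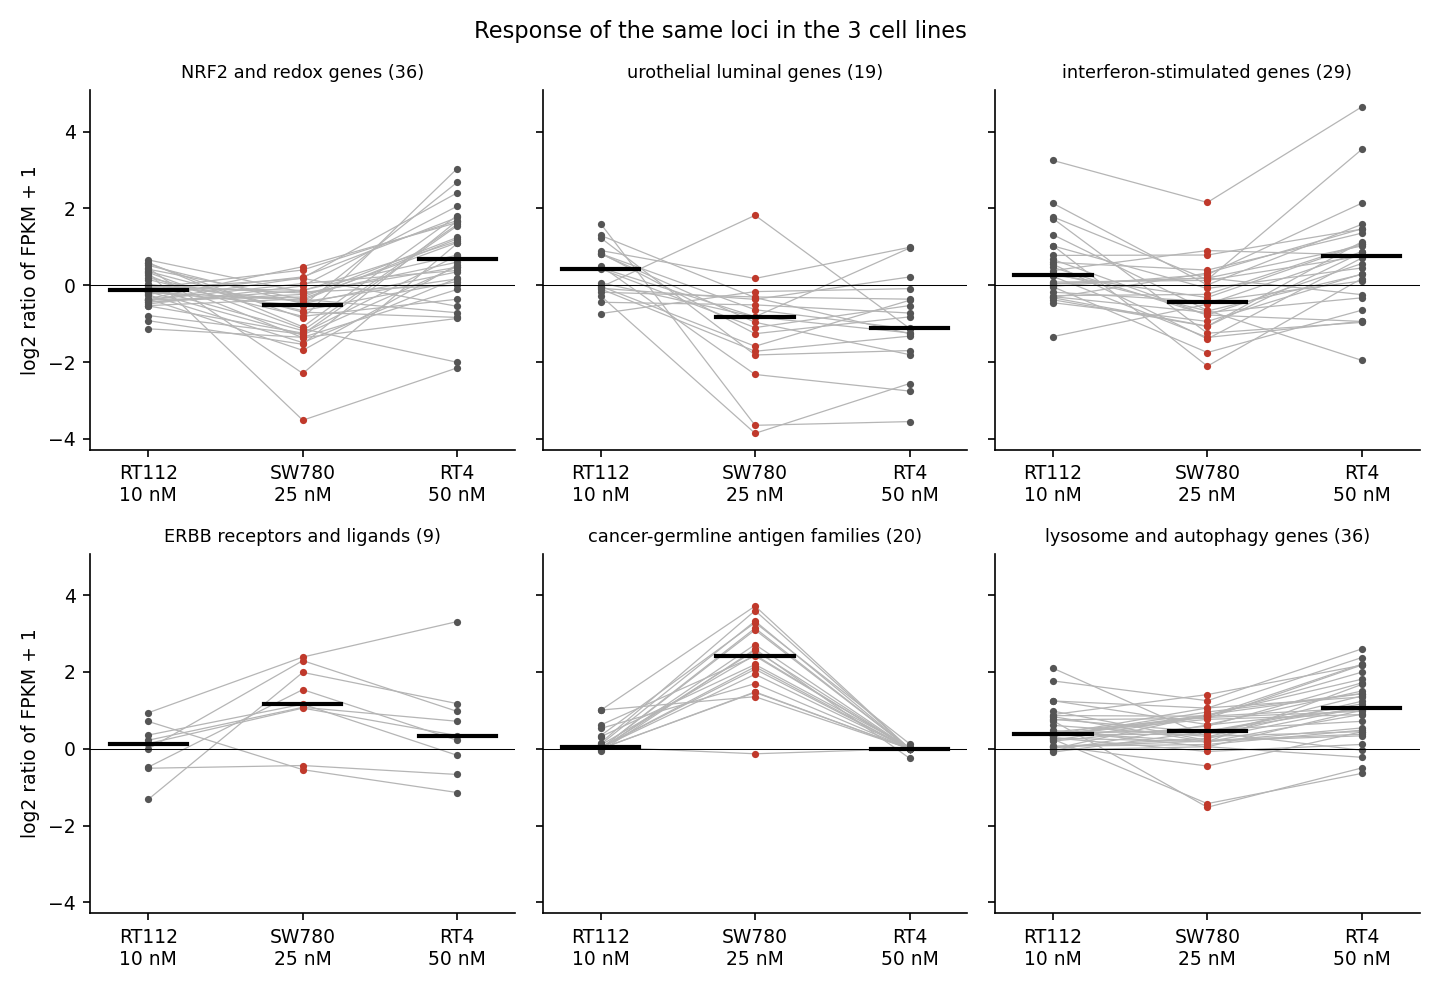
Log2 ratio of FPKM + 1, quisinostat over DMSO, of the same loci in RT112 (10 nM), SW780 (25 nM, red) and RT4 cells (50 nM) for 6 gene lists, with grey lines joining a locus and black bars at the medians. For NRF2 and redox genes the medians are -0.13, -0.50 and 0.69, and for the cancer-germline antigen families 0.04, 2.43 and 0.00, but these families were chosen after the values were seen, and the limit on level was set on the SW780 libraries and passed by most of them through the quisinostat library alone, so that difference between lines is built in.

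The difference between the SW780 ratio and the mean of the other 2 lines' ratios was tested with limma over 8485 loci with a mean of at least 2 FPKM in the 6 libraries. At an adjusted p under 0.05, 0 loci differed (0%), with the smallest Benjamini-Hochberg adjusted p of limma at 0.9999. Without adjustment 35 loci were higher and 47 lower in SW780 cells at p under 0.05, and under the 6 alternatives 27 to 88 were higher and 37 to 113 lower. Each locus had 1 residual degree of freedom before limma pooled the spread, and that spread is between RT4 and RT112 cells, which differ in line and dose, so standard errors hold no variation between SW780 replicates. These values rank loci and show no difference past the threshold. The loci with the smallest unadjusted p on the lower side were led by IGFBP3, which binds insulin-like growth factors and was at 57.3 FPKM in DMSO and 16.9 FPKM with quisinostat in SW780 cells. Its difference from the other lines was -2.62 with a standard error of 0.57. For HMOX1 the difference was -3.06 (SE 0.68), for CYP4B1 -2.93 (SE 0.65), for RARRES3 -2.86, for LY6D -2.64 and for OLR1, an oxidised lipoprotein receptor, -2.19. On the higher side the difference was 2.48 for S100A2 (SE 0.55), 2.41 for FABP4 (SE 0.60) and 2.71 for DUSP6 (SE 0.68). NT5E, the ecto-nucleotidase CD73, and podocalyxin (PODXL) had differences of 2.82 and 2.32. NT5E was at 4.03 FPKM in DMSO and 29.7 FPKM with quisinostat in SW780 cells, and PODXL at 9.71 and 48.1 FPKM. The adjusted p of limma was 0.9999 for each of these genes.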

How the data were processed

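Polyadenylated RNA of SW780, RT4 and RT112 cells was sequenced from stranded libraries, with 1 library per line and treatment. Per the labels, with tool versions from the submitters' processing notes and Ballgown from the study's methods, the authors processed reads with CASAVA 1.8.2, Trimmomatic 0.36, HISAT2 2.2.1 (GRCh38), SAMtools 1.15.1, StringTie 2.2.1 and Ballgown, and the deposited values are FPKM. Which annotation release and strand setting the assembly used, and by which rule the 10515 rows were kept, is not given in the sources used here. No correction for GC content is named. Since FPKM carries no read counts, depth is unknown and no counting interval could be given. All 6 columns of per-sample values were used.

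From the deposited FPKM, 1 value per locus was taken and log2 ratios were computed with a pseudocount of 1 for loci with a mean of at least 2 FPKM. Among the 8234 loci, 353 had more than 1 gene name and 452 had none. Positions, lengths and GC content came from GENCODE 29 on GRCh38 for 98.5% of single-name loci, and promoters from RefSeq on GRCh38.p14. The only test was limma 3.58.1 in R 4.3.3 on the 3 per-line ratios, two-sided, with the prior variance following the mean level and adjustment by Benjamini-Hochberg, a step that was tested on simulated data. Python 3.11.15 was used for the rest.

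The genes and lists were chosen with earlier results of these data known. Named genes were the 12 largest rises and falls, 6 each way among loci of at least 50 FPKM in DMSO, 6 each way near 0 in 1 library, up to 6 members of each list, FGFR3, BAIAP2L1, HDGF, HDAC1, HDAC2 and HDAC3, and the 6 smallest limma p each way, all with 1 gene name. A few genes that the rule names are not reported here. Other list members that are given with values were chosen after their values were seen. The 3 families marked as chosen after the values were seen, the GC correction and the setting without loci at 0 were also added after seeing the data. Alternatives were a pseudocount of 0.1, rescaling to a common summed FPKM, centring, a minimum mean of 5 FPKM, no minimum, single-name loci, thresholds of 1.5-fold and 3-fold and, for limma, no trend.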

Additional observations from a re-analysis of the deposited data

Results flagged for a closer look

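In 22 single-name genes, each named by rule or in a list, that were above 0 in both SW780 libraries, the SW780 ratio was past 2-fold one way and the ratio of another line past 2-fold the other way. With 1 library a side this opposite movement has no replicate check, and the limma difference of SW780 from the other lines had an adjusted p of 0.9999 for each of them.

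Against RT4 cells, FABP4 was higher in SW780 cells (1.82) and lower in RT4 cells (-1.12). HMOX1 was lower in SW780 cells (-2.30) and higher in RT4 cells (1.09). The ferritin chains followed the same pattern, with FTL at -1.18 in SW780 and 1.58 in RT4 cells and FTH1 at -1.27 and 1.55. IGFBP3 had ratios of -1.70 in SW780 and 1.14 in RT4 cells, AKR1C1 of -1.54 and 1.68, the glutathione transferase gene GSTM3 of -1.08 and 1.81, and the interferon-stimulated gene SAMD9L of -1.07 and 1.13.

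Against RT112 cells, DUSP6 was higher in SW780 cells (1.80) and lower in RT112 cells (-1.20), as were the connexin gene GJB2 (1.08 and -1.27), HBEGF (1.99 and -1.32) and IL1B (1.28 and -1.08). UPK1A was lower in SW780 cells (-3.65) and higher in RT112 cells (1.60), as were TCOF1 (-3.01 and 3.74) and CEP170B (-2.32 and 1.10). The same held for TRIM22 (-2.10 and 1.03), HSPB1 (-1.05 and 2.23), UPK3B (-1.81 and 1.23) and OLR1 (-1.08 and 1.27). It also held for the DNA polymerase gene POLD1 (-1.11 and 2.71), the glycolysis gene PFKL (-1.06 and 1.24) and ISG15 (-1.25 and 1.74). All of these values are log2 ratios of FPKM + 1. Some rest on levels at or near 0. POLD1 was listed at 0 in the RT112 DMSO library, so its ratio there rests on the added 1. In RT112 cells, TCOF1 was at 0.153 FPKM in DMSO and 14.4 FPKM with quisinostat, and TRIM22 at 0.305 and 1.67 FPKM. CEP170B was at 0.00728 FPKM with quisinostat in SW780 cells. HSPB1 and ISG15 were no longer past 2-fold in SW780 cells with the GC correction.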

How the results depend on the processing

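The counts of 567 higher and 296 lower loci moved by over 1.5 times with a minimum mean of 5 FPKM (304 and 172), at 1.5-fold (1289 and 922) and at 3-fold (228 and 68), and these settings by their construction test fewer loci or shift the threshold. Under the other alternatives 472 to 778 loci were higher and 229 to 423 lower, and 62.0% to 68.4% of the calls were higher. Of 37 list medians, 3 moved by over 1.5-fold. That of the AP-1 and KLF factors came to 0.47 with a minimum mean of 5 FPKM, which left 6 loci. That of the class II genes came to 1.14 with this minimum, which left 2 loci, and to 3.62 with a pseudocount of 0.1. That of the cancer-germline families came to 3.43 with a pseudocount of 0.1. The largest list median whose sign changed was 0.0621 from 0. Over the named genes and list members, 51 of 680 ratios moved by over 1.5-fold with a pseudocount of 0.1, and with the GC correction 16 of 633 were no longer past 2-fold and 8 newly were. No ratio past 2-fold changed sign under these or under rescaling and centring. The limma difference called 0 loci in each direction under its 6 alternatives, with 88 higher and 52 lower at an unadjusted p under 0.05 without a minimum level and a smallest adjusted p of 0.298 with a pseudocount of 0.1. Treatment was paired by line in the limma step, which takes the ratio within each line, and a block on replicate number could not be fitted with 1 library per group. With no counts, the precision of low values is unknown.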
